A study of Homo sapiens with 5 samples.

Results

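Reads named as 5S ribosomal RNA were described in small RNA libraries of MCF10A, an immortalized, non-tumorigenic line of human mammary epithelial cells. The members were the rows whose name starts with RNA5S, joint names included, and whose counts summed to 3 or more over the 5 libraries: 191 of 457 such rows, in tables of 49965 named small RNAs. They were chosen by their summed count over both groups, so that count is given as a description only. Plates without a coating gave the 3 attached libraries, and plates with 2% poly-HEMA, a coating that cells cannot grip, gave the 2 detached ones. All cells shared a DMEM/F12 medium with horse serum, epidermal growth factor, insulin, cholera toxin, hydrocortisone and antibiotics. No genotype or drug differed between the groups. Both groups were cultured for 24 h per the design text, although attached libraries bear a time label of 0 h and detached ones of 24 h. The RNA was size-selected at 18 to 24 nt, so these counts are of fragments, not of the intact transcript. Separate cultures are not stated for the replicates, so the spread behind each p-value is that among these libraries and may be technical.

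5S rRNA is the smallest RNA of the large ribosomal subunit. It is made by RNA polymerase III from an internal promoter that TFIIIA recognises, in a tandem gene array on the long arm of chromosome 1, and it is carried to the ribosome with the proteins RPL5 and RPL11. The genome also holds many scattered 5S pseudogenes (RNA5SP names), most of them diverged or truncated copies.

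The sequences show which letters a name can stand for. They come from GENCODE 29 (GRCh38, the assembly also called hg38) and are written 5′ to 3′ in transcript direction. Shown are 4 loci behind names that led the counts, or, for the last 2, behind the joint name whose groups separated most clearly. The capitals mark the longest run shared exactly with RNA5S1, the first copy of the gene array, which has the same 119 nt as 15 other copies. Where runs tie in length, as in RNA5SP186, only the first is marked.
RNA5SP288: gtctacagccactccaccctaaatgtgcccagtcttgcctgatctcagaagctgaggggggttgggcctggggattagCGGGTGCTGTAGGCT
RNA5SP186: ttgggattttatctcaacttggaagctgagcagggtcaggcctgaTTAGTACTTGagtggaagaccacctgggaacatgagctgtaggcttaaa
RNA5SP283: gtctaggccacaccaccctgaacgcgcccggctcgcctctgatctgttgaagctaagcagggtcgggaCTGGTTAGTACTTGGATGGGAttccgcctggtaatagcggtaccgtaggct
RNA5SP28: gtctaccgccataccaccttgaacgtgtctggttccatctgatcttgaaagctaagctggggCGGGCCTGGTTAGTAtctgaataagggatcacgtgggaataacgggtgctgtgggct

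Counts on all named RNAs ran from 8945953 to 16008489 per library, and human miRNAs held 97.1% to 98.7% of them. Counts outside human miRNAs were 1.35% to 1.72% of the total in 4 libraries and 2.93% in detached replicate 2. The epithelial label was borne out by miRNAs: miR-205-5p, miR-200c-3p, miR-141-3p and miR-200b-3p summed to 40256 to 114018 counts per 1000000 named counts (CPM below). The sum was 1.68 to 29.05 CPM for 8 miRNAs of blood, liver, neurons and muscle. Of these, miR-133a-3p was at 0 in every library. By contrast, miR-1-3p reached 183 counts, or 11.4 CPM, in detached replicate 1, where the sum of 29.05 CPM was also found. Attached replicates 1, 2 and 3 had 17, 0 and 3 counts of miR-1-3p, and detached replicate 2 had 1. The source of this high value was not tested. Attached replicate 2 stood apart from the other attached libraries. Over all rows with at least 10 counts in a pair, chi-square per degree of freedom was 1849 and 2355 in its pairs. It was 404 between attached replicates 1 and 3.

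The members held 613, 527 and 393 counts in attached replicates 1, 2 and 3, and 2454 and 3491 counts in detached replicates 1 and 2. In CPM this was 49.6, 58.9 and 37.5 in the attached libraries and 153 and 322 in the detached ones. Both detached libraries lay above all 3 attached ones, with means of 237 ± 119 (SD, n = 2) and 48.7 ± 10.7 (SD, n = 3), a ratio of 4.88. The ratio was 5.45 without attached replicate 2 and 3.15 without detached replicate 2. No test was run on this sum, because the names were chosen with results of these data known. Relative to counts outside human miRNAs, which were highest in detached replicate 2, the members held 0.289%, 0.374% and 0.255% in attached and 1.14% and 1.10% in detached libraries, a ratio of 3.66. The part of library composition in the difference was not tested. In bulk libraries such as these, a change in the cells that contribute reads and a change in reads per cell cannot be told apart.

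**Figure D1:**
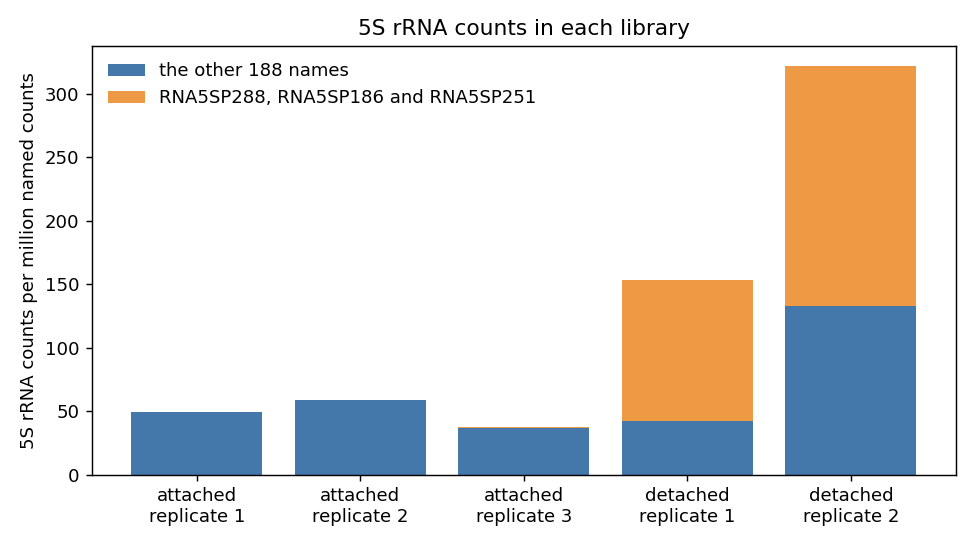
Bars give the 5S rRNA counts of the 191 names in CPM (y axis) in each library (x axis), divided into the 3 names with the largest summed count and the other 188. The 3 names make up 72.4% and 58.8% of the detached bars, and the other names of detached replicate 1 stand at 42.4 CPM, within the attached range of 36.9 to 58.8 CPM.

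Just 3 pseudogene names made most of the excess, and each had nearly all of its counts in 1 library. RNA5SP288, RNA5SP186 and RNA5SP251 together held 0, 1 and 6 counts in attached replicates 1, 2 and 3, but 1776 counts (72.4% of the members' counts) in detached replicate 1 and 2052 (58.8%) in detached replicate 2. Without these names, which were picked after their values were seen, the attached libraries measured 49.6, 58.8 and 36.9 CPM, and the detached ones 42.4 and 133 CPM. The groups then overlapped: detached replicate 1 fell inside the attached range and detached replicate 2 stayed above it, and the ratio of means was 1.81.

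RNA5SP288 had 0 counts in each attached library, 38 in detached replicate 1 and 2046 in detached replicate 2. In CPM that is 2.37 and 189 in the detached libraries, and 0 in the attached ones. Against a floor of 3 counts over the pooled attached libraries, or 0.0944 CPM, it was at least 25.2-fold higher in detached replicate 1 and at least 1998-fold higher in detached replicate 2. Floors and intervals cover counting error alone, and not the spread between libraries. Nor do they cover reads that are copies of 1 molecule, which cannot be told where molecular identifiers are lacking. The locus (chr9:95142449-95142541, minus strand) lies in an intron of FANCC, a Fanconi anaemia DNA repair gene read on the same strand. It is 93 nt long and 64.7% identical to RNA5S1, and its longest shared run is the 15 nt at its 3′ end.

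RNA5SP186 had 0, 0 and 6 counts in the attached libraries, 965 in detached replicate 1 and 5 in detached replicate 2. Its level was 60.3 CPM in detached replicate 1 and 0.461 in detached replicate 2, below the 0.573 of attached replicate 3. RNA5SP186 (chr5:76091708-76091801, minus strand) lies opposite to and within an intron of SV2C, a synaptic vesicle protein gene, and is 60.2% identical to RNA5S1. RNA5SP251 had 0, 1 and 0 counts in attached libraries, 773 in detached replicate 1 and 1 in detached replicate 2. For both names the groups overlapped, and the 2 detached libraries differed from each other more than detached replicate 2 differed from the attached libraries.

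**Figure D2:**
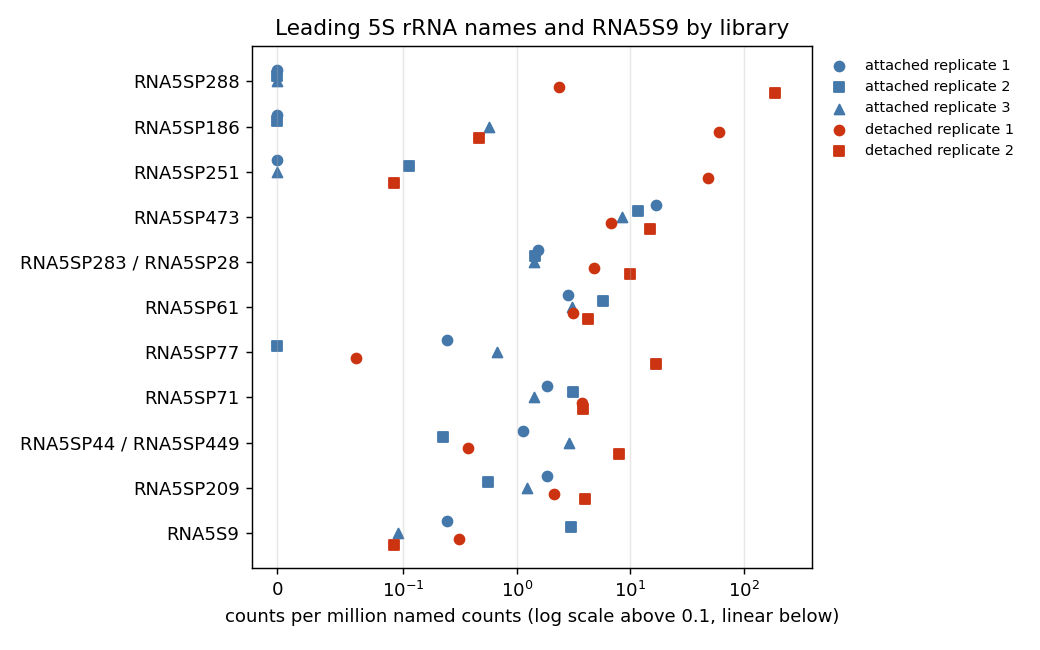
Each row is a 5S name and each symbol a library, placed by CPM on an axis that is logarithmic above 0.1 and linear below. RNA5SP473 and RNA5SP61 lie within a narrow band in all 5 libraries, while RNA5SP288, RNA5SP186, RNA5SP251 and RNA5SP77 each have 1 detached library far to the right.

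RNA5SP473 had counts of similar size in all libraries. Of the 108 windows of 18 nt in its locus, 58 also stand in transcripts of 3060 genes outside rRNA, so a count under this name need not come from a 5S sequence. The like numbers were 54 of 109 windows and 539 genes for RNA5SP71, and 7 of 80 windows and 137 genes for RNA5SP209. They were 18 of 120 windows and 5 genes for RNA5SP251, and 0 windows for RNA5SP288 and RNA5SP186. Only annotated transcripts were searched, so matches in introns or between genes are unknown for every name. Attached libraries held 208, 105 and 89 counts of RNA5SP473 and detached ones 109 and 162. In CPM this was 16.8, 11.7 and 8.50 against 6.81 and 14.9. The groups overlapped, with means of 12.4 ± 4.196 (SD, n = 3) and 10.9 ± 5.74 (SD, n = 2). Its log2 fold change was -0.53 (SE 0.68, edgeR quasi-likelihood adjusted p 0.915). It led the members in every attached library, with 33.9%, 19.9% and 22.6% of their counts (exact 95% Clopper-Pearson intervals 30.2 to 37.8%, 16.6 to 23.6% and 18.6 to 27.1%), and stood behind 2 other names in each detached library with 4.44% and 4.64% (3.66 to 5.33% and 3.97 to 5.39%).

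**Figure D3:**
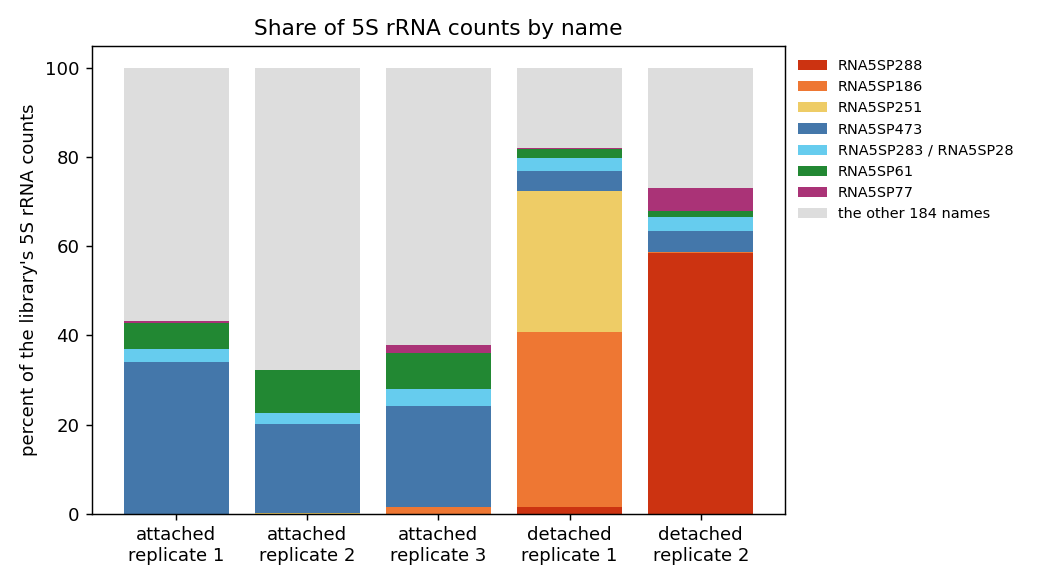
Stacked bars give the percent of each library's 5S rRNA counts (y axis) under 7 leading names and under the other 184. RNA5SP473 is the largest named block in the 3 attached libraries, RNA5SP186 (39.3%) and RNA5SP251 (31.5%) in detached replicate 1, and RNA5SP288 (58.6%) in detached replicate 2.

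Among the other 10 names with the largest summed counts, RNA5SP283_RNA5SP28 had the clearest separation between groups. Its counts were 19, 13 and 15 (attached) against 76 and 109 (detached), or 1.54, 1.45 and 1.43 against 4.75 and 10.0 CPM. Both detached libraries exceeded all attached ones, and the log2 fold change was 1.99 (SE 0.63), with an unadjusted p of 0.0133 and an adjusted p of 0.386 in edgeR's quasi-likelihood test. Its share of the members' counts was alike in all libraries, from 2.47% to 3.82%.

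RNA5SP71 and RNA5SP209 also had both detached values above all attached ones, by margins that did not pass the test. RNA5SP71 (chr1:182944365-182944490, minus strand, in an intron of SHCBP1L) held 23, 28 and 15 against 60 and 42 counts, or 1.86, 3.13 and 1.43 against 3.75 and 3.87 CPM, with a log2 fold change of 0.57 (SE 0.70). RNA5SP209 (chr6:75865239-75865335, minus strand, opposite to the myosin gene MYO6) held 23, 5 and 13 against 34 and 43 counts, or 1.86, 0.559 and 1.24 against 2.12 and 3.96 CPM, with a log2 fold change of 1.00 (SE 0.72). Detached replicate 1 was above attached replicate 1 by a small margin.

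RNA5SP61 (chr1:162338643-162338742, plus strand, in an intron of NOS1AP) also had similar counts in all libraries, with 35, 51 and 32 against 50 and 46 counts. In CPM it measured 2.83, 5.70 and 3.05 against 3.12 and 4.24, and its log2 fold change was -0.36 (SE 0.69), or 0.12 (SE 0.47) without attached replicate 2. RNA5SP77 (chr1:227561181-227561300, plus strand, 90% identical to RNA5S1) held 3, 0 and 7 counts in attached libraries, 1 in detached replicate 1 and 182 in detached replicate 2. RNA5SP44_RNA5SP449 held 14, 2 and 30 against 6 and 87 counts, and its log2 fold change of 1.16 (SE 1.18) became -1.82 (SE 1.63) without detached replicate 2. The high value of both names thus stood in detached replicate 2 alone.

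The expressed gene array gave almost no counts under its own names. The row that joins RNA5S1 to RNA5S8 and RNA5S10 to RNA5S17, 16 copies with 1 sequence, had 0 counts in all 5 libraries, which allows up to 0.187 to 0.335 CPM, depending on the library. RNA5S9, the remaining copy of the array, held 3, 27 and 1 counts (attached) and 5 and 1 (detached). Attached replicate 2 was the high library at 3.02 CPM, against 0.0955 to 0.312 in the other attached libraries and detached replicate 1 and 0.0922 in detached replicate 2, and the groups overlapped. Of its 102 windows of 18 nt, 84 are shared with RNA5S1 and 14 with no other 5S locus.

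Names made of identical loci were all at 0. In GENCODE 29, 510 of the 514 loci in the 457 row names had a sequence. Of the 41 joint rows, 8 join loci of 1 sequence (the 16 array copies among them), and all 8 had 0 counts in every library, whereas 320 of the 416 single names (76.9%) had a count. There were 6 rows whose every 18-nt window also stands in a locus of another 5S row, 4 of them among these 8 joint rows, and all 6 had 0 counts. A count was present in 8 of 15 rows with 1 to 20 windows held by no other row, in 56 of 88 with 21 to 50 and in 285 of 345 with over 50. How the authors treated reads that match several names is not given in the sources used here. A count of 0 in these rows cannot be told apart from reads set aside for matching more than 1 name.

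How the reference joined the loci of the other 33 joint rows is not given in the sources used here. In each of them the number of one pseudogene begins with the number of another, as in RNA5SP283 and RNA5SP28, RNA5SP44 and RNA5SP449 or RNA5SP38 and RNA5SP380. In the 32 of these whose loci all have a sequence, the joined loci differ in sequence and lie on different chromosomes, with 51.4% to 78.8% identity between them (median 65.3%). RNA5SP283 (chr9:62802320-62802438, minus strand) and RNA5SP28 (chr13:50812988-50813106, minus strand, in an intron of DLEU7) are 74.8% identical. The 33 rows held 674 counts, and 25 of them were members. A count under such a name cannot be assigned to either locus, so the difference in RNA5SP283_RNA5SP28 is uncertain as to its source.

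**Figure D4:**
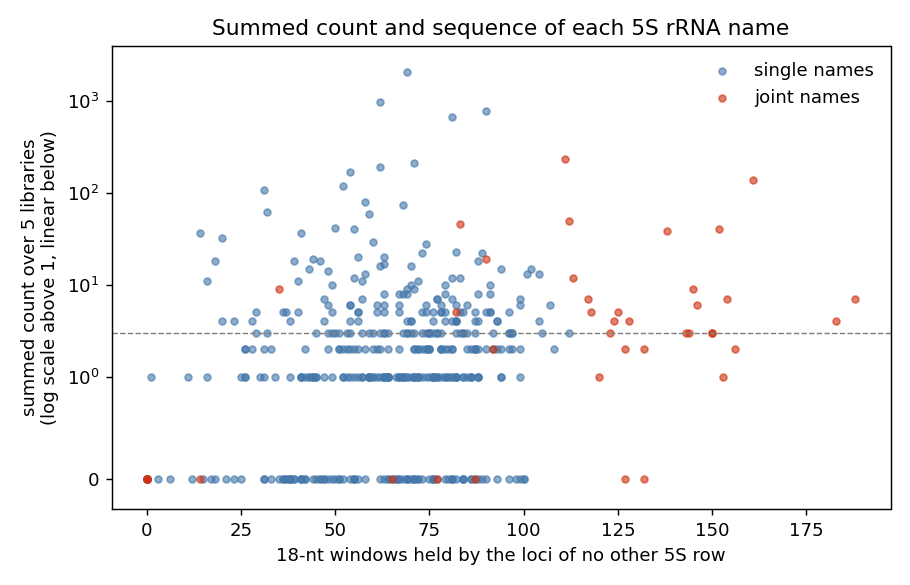
Each point is a 5S row, placed by the number of its 18-nt windows that stand in the loci of no other 5S row (x axis, windows of all joined loci for a joint name) and by its summed count over 5 libraries (y axis, logarithmic above 1, linear below). The dashed line is the membership threshold of 3, and the rows at 0 windows all have 0 counts.

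Counts were concentrated in few names. The summed count was 7478 over the 191 members, or 97.2% of all 5S counts. RNA5SP288 alone held 27.9% of them (exact 95% interval 26.9 to 28.9%, for counting error in the pooled libraries), but 38 of 3987 counts (0.953%) without detached replicate 2. As the mean of the 5 library shares, RNA5SP473 led with 17.1%, and RNA5SP288 had 12.03%. The first 3 names held 51.3% of the pooled counts, the first 10 names 74.5% and the first 20 82.6%, while the median member had 5 counts. Just inside the threshold, 49 rows summed to 3 and 24 to 4, and just outside it 104 rows summed to 1 and 56 to 2. Only 28 members had a count in all 5 libraries, and 8 in 1 library alone, led by RNA5SP465 with 22 and RNA5SP436 with 9 counts, both in detached replicate 2, and RNA5SP152 with 5 in attached replicate 2. Rows under 70% identical to RNA5S1 held 5241 counts in 149 rows, those of 90% or more 451 counts in 10 rows. RNA5SP288, RNA5SP186, RNA5SP251 and RNA5SP473 made up 4508 of the 5241, the other 145 rows held 733, and the median row had 2 counts in the class under 70%, as in those of 70 to 80% and 80 to 90%. Identity is over a global alignment, so truncated copies count as less identical. Of the 190 members with a sequence, 84 had no 18-nt window in common with RNA5S1.

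In the edgeR quasi-likelihood test across all named rows, 11 of the 191 members passed the low-count filter and 0 were called at adjusted p under 0.05. The background was the same: 0 of 1159 rows were called in either direction, which is 0%. At unadjusted p under 0.05, 2 of the 11 were higher, RNA5SP288 (unadjusted p 0.00196, edgeR adjusted p 0.12) and RNA5SP283_RNA5SP28, beside 6.64% of all rows, and 0 were lower, beside 2.16%. RNA5SP288 passed the filter through the detached libraries alone. The log2 fold changes of 6 of the 11 were positive, with a median of 0.06, against 600 of 1159 rows and a median of 0.04 over all rows tested. RNA5SP186, RNA5SP251 and RNA5SP77 were not among the 11, because each exceeded the filter's minimum in 1 library only. Over all members, 30 of 191 (15.7%) were higher in both detached libraries than in all attached ones, beside 16.3% of the 3943 rows with a summed count of 3 or more, and 6 (3.14%) were lower, beside 4.92%. These shares were close to the background.

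In edgeR, members were called only when the low-count filter was left out. Without the low-count filter, edgeR called 6 of 191 members higher (RNA5SP288, RNA5SP186, RNA5SP251, RNA5SP463, RNA5SP150 and RNA5SP77) and 1 lower (RNA5SP357), beside backgrounds of 0.317% and 0.184% of 9771 rows. These sets are unlike: the 9771 rows include sums of 1 or 2, and 3943 rows sum to 3 or more, as the members do. A background at the members' cut-off was not counted for these calls, so the shares cannot be compared. Each of the 7 called members had 90.6% to 99.6% of its summed CPM in 1 library. RNA5SP150, RNA5SP463 and RNA5SP357 were named for these calls after their values were seen. RNA5SP357 held 55 counts in attached replicate 2 and 0 to 2 in every other library. RNA5SP463 held 73 counts in detached replicate 2 and 0, 0, 1 and 0 in the others. RNA5SP150 (chr3:181822872-181822990, minus strand, opposite to SOX2-OT, and 96.6% identical to RNA5S1) held 1, 1 and 1 counts (attached) and 10 and 95 (detached), so both detached libraries were higher. Without attached replicate 2, the filtered edgeR test called 0 members, beside 0.892% of 1121 rows called higher. DESeq2 called 0 members, beside 0.761% of 2760 rows in either direction and 0.616% higher. At unadjusted DESeq2 p under 0.05, 8 of 191 members were higher and 1 lower, beside 0.86% and 0.686% of 9769 rows. Those rows also include sums of 1 or 2, so these shares cannot be compared either. DESeq2 gave RNA5SP150 a log2 fold change of 5.08 (SE 1.45, DESeq2 adjusted p 0.0546). The authors' deposited table calls 1 of the 109 members that have an adjusted p there, RNA5SP150 (log2 fold change 3.78, adjusted p 0.0353), beside 0.602% of its rows that have one, or 0.568% called higher. For RNA5SP288 the authors' deposited table gives a log2 fold change of 1.59 with a standard error of 1.10. The fits here gave 12.7 (SE 2.45) in edgeR with the filter and 11.8 (SE 3.76) in DESeq2. With 0 counts in every attached library, these data do not fix the size of the ratio. How the authors estimated their value is not given in the sources used here. The 25 joint members were not in the authors' deposited table.

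Among 5S names that passed a count cut-off, the detached libraries differed from each other more than the attached libraries did. Over names with at least 10 counts in a pair, chi-square per degree of freedom was 116 between the detached libraries (37 names), against 4.32 to 10.6 among the attached ones (15 to 18 names). The statistic grows with depth, and the detached libraries had more 5S counts. Spearman's rho across the 31 members with a summed count of 20 or more was 0.58 to 0.74 among attached libraries and 0.18 between the detached ones. This is a description across names that share a library and a depth. Names such as RNA5SP288, RNA5SP186 and RNA5SP251 passed the cut-offs through detached libraries alone, so the choice of names itself favours a larger detached difference. Over rows of all names with at least 10 counts in a pair, chi-square per degree of freedom was 563 between the detached libraries. This lay within the 404 to 2355 of the attached pairs.

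Other structural RNAs were summed in the same way. U6, also a polymerase III transcript, measured 168, 203 and 144 (attached) against 129 and 342 CPM (detached), and the groups overlapped. Among polymerase II transcripts, U1 measured 43.9, 29.3 and 38.2 against 56.7 and 79.1 CPM, U5 38.3, 71.8 and 66.1 against 92.8 and 567, and U2, U4 and the C/D box and H/ACA snoRNAs overlapped between groups. U7 measured 5.18, 5.48 and 5.63 against 6.12 and 18.2 CPM, and the Cajal body RNAs 3.40, 0.894 and 2.00 against 10.7 and 13.1, a ratio of means of 5.66, so both separated as 5S did. The 5.8S rRNA pseudogenes, whose parent gene polymerase I transcribes, measured 1.70, 1.79 and 8.11 against 2.75 and 7.003 CPM. The edgeR test called 0 rows of these classes; at unadjusted p under 0.05, U6 had 2 of 19 tested rows higher and 1 lower, and U5 had 3 of 9 higher. Detached replicate 2 was the highest library for U6, U1, U2, U4, U5 and the C/D box snoRNAs, as it was for 5S, and its part in the 5S total was not tested beyond the values without it.

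The share of names that sat in a single library was counted in each class, by a rule chosen after the values were seen. Among rows with a summed count of 50 or more, 7 of 15 5S names (46.7%) had 90% or more of their summed CPM in 1 library. The count was 2 of 21 for U6, 1 of 7 for U1, 0 of 9 for U5, 0 of 106 for C/D box snoRNAs, 13 of 227 for piRNA names and 1 of 667 for human miRNAs. Classes differ in level, and no test was run. Each of the 7 5S names reached 50 counts only through its high library. The cut-off itself thus favours such names in a class of mostly scarce rows, and the shares of classes cannot be compared on it. The 7 were RNA5SP288, RNA5SP77, RNA5SP463 and RNA5SP150 in detached replicate 2, RNA5SP186 and RNA5SP251 in detached replicate 1, and RNA5SP357 in attached replicate 2.

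**Figure D5:**
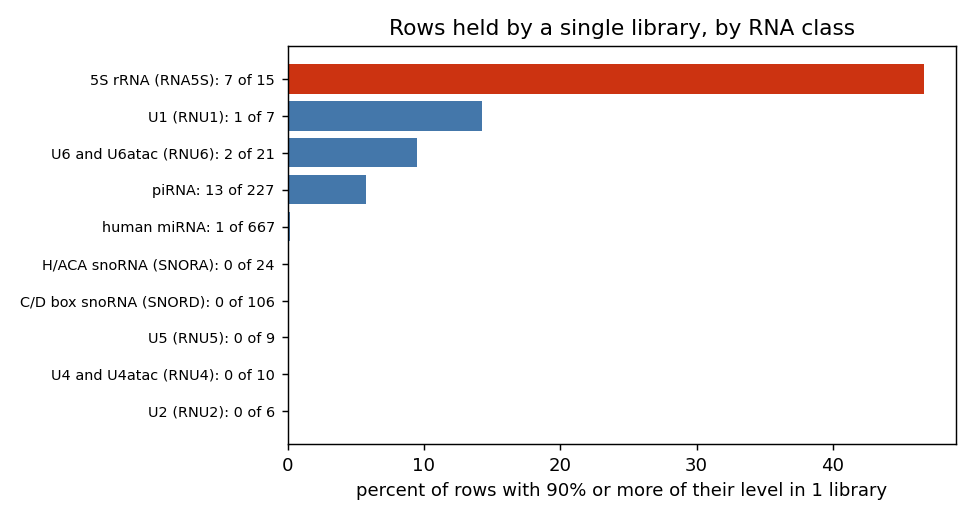
Bars give, for each RNA class with at least 5 rows of summed count 50 or more, the percent of those rows with 90% or more of their CPM in 1 library (x axis), with the row counts beside the class names. The 5S bar stands at 46.7%, U1 at 14.3% and U6 at 9.52%. The 5S rows counted in the bar reached 50 counts only through their high library.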

How the data were processed

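Small RNA libraries of 5 MCF10A samples were read from the authors' deposited tables of raw read counts per named RNA. Per the labels, small RNA came from 50 µg of total RNA. The submitters' processing notes name hg38 and DESeq2 without a role. Not given in the sources used here are the aligner, the counter and what was done with multi-matching reads. The authors' deposited comparison table gives log2 fold changes with standard errors and p-values. Members and lists were chosen with earlier results of these data known. Levels are counts per 1000000 named counts (CPM), computed here without TMM. All named rows that passed filterByExpr (minimum count 10 and total 15) were fitted with edgeR 4.0.16 in R 4.3.3. The fit used TMM and a two-sided quasi-likelihood F test on all 5 libraries, with group only. Benjamini-Hochberg adjustment covered all rows that passed. The standard error was the log2 fold change over the square root of F. The script was tested on simulated data. Alternatives were DESeq2 1.42.0, other scalings, no filter, a replicate block, other denominators and thresholds, and leaving out each library. Named were the 10 names with most counts, any called name, the gene copies, and up to 3 names counted in 1 library. Sequences, positions and overlaps are from GENCODE 29, with identity by global alignment in Biopython 1.88. The 5 summary rows of each table hold 0. Chi-square per degree of freedom between replicates was far above sampling noise in every pair, and all 5 libraries were kept as separate samples. Some reference sequences are not reported here.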

Additional observations from a re-analysis of the deposited data

How the results depend on the processing

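The ratio of the members' mean CPM, 4.88, was 3.15 to 6.61 on leaving out each library, 3.66 to 5.59 under the other planned denominators and thresholds, and 1.81 without the 3 leading names, an alternative chosen after seeing the data. The number of names was 351 at a summed count of 1 or more and 59 at 10 or more. The share of the leading name, 27.9% for RNA5SP288, was 30.6% without joint names, 17.1% for RNA5SP473, which led, and 12.03% for RNA5SP288 as means of the library shares (chosen after seeing the data), and 24.4% to 40.7% on leaving out each library, the lowest being that of RNA5SP186, which led without detached replicate 2. The count of called members was 0 in edgeR with TMM, library totals, human miRNA scaling and each attached library left out. It was 0 in DESeq2 and 7 without the low-count filter. Under human miRNA scaling, 6 of all 1159 tested rows were called, each higher in detached libraries. Of 106 fold changes of the 11 tested members under alternatives, 99 kept their direction and stayed uncalled, and RNA5SP288 became called without the filter. The 6 reversals, with log2 fold changes, were RNA5SP61 (0.12 without attached replicate 2, the other libraries left out giving down to -0.66), RNA5SP44_RNA5SP449 (-1.82 without detached replicate 2, the others up to 2.05) and RNA5SP370_RNA5SP37 (-0.39 to -0.12 on leaving out attached replicate 1, attached replicate 3 or detached replicate 2, and -0.32 under the replicate block); the cause was not tested. With a detached library left out, the other was assumed to vary like the attached ones. Library totals moved the median of all tested rows from 0.04 to 0.30 and that of the members from 0.06 to 0.40. Whether equal replicate numbers mark paired samples could not be decided. Deviations from the group mean correlated at -0.20 and -0.14 in the same-numbered pairs. With 2 detached libraries, however, the deviations of one mirror those of the other. The replicate block on replicates 1 and 2 called 0 members. Depth limits single names, since 3 counts are 0.187 to 0.335 CPM.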
